A study of Mus musculus with 407 samples.

Results

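The 10 genes followed here, known for their expression in adipocytes, were measured across the mouse skeletal muscles of this series: Adipoq, Plin1, Plin4, Cidec, Cidea, Cfd, Lep, Retn, Fabp4 and Ucp1. They were taken by gene symbol from the count table of every library, and all 10 were found among the 24458 symbols of the tables. The data were raw read counts of total RNA from C57BL/6J mice of both sexes, with no treatment, from the diaphragm, gastrocnemius, soleus and tibialis anterior at 6 months of age and at 12, 18, 21, 24 or 27. The 407 libraries fell into 48 groups of sex, muscle and age with 6 to 10 libraries each, and the study set out to follow the muscle transcriptome with age. Mice of an age were collected on the same day, so age and day of collection cannot be told apart, and muscles are not tied to single mice in the labels.

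White adipocytes store triglyceride in a single large droplet and release fatty acids and hormones, whereas brown adipocytes hold many small droplets and burn fatty acids for heat. In muscle, adipocytes lie between the fibres and around the bundles, and they are known to arise from resident fibro-adipogenic progenitors. Some of the 10 genes are also used outside adipocytes: Fabp4 is made by capillary endothelium and macrophages, and Plin4 by muscle fibres. In RNA of whole muscle, more adipocytes and more RNA of these genes per adipocyte cannot be told apart.

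Total counts ranged from 38583802 to 300089909 per library (median 72766895), and every library but the deepest was at or below 104836980. The labelled tissue was checked with 8 skeletal muscle genes (Ckm, Acta1, Myh1, Myh2, Myh4, Myh7, Tnnt1 and Tnnt3), which were detected in every muscle and summed to medians of 18800 CPM (counts per 1000000 of the scaled library total) in female diaphragm and 75900 in male gastrocnemius. In 8 libraries, 6 of diaphragm and 2 of gastrocnemius, the deviation of a gene from its group followed the GC content of its transcript, with slopes of -2.16 to 0.69 log2 units per 10 percentage points of GC, whereas the other 399 libraries lay between -0.27 and 0.23. Liver genes summed to more than 1000 CPM in 3 libraries, 2 of male diaphragm and 1 of female soleus. Some results are given with and without these libraries, and all others include them.

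The promoters of Adipoq, Plin1 and Lep, whose RNA moved together between libraries, are shown with that of Plin4, whose RNA did not. Each run holds 250 bases before and 50 after a start of the gene in RefSeq (assembly GRCm38.p6, which is mm10). Runs are read 5′ to 3′ on the gene's strand. For Adipoq and Lep that start is the first base of the gene position given further below. For Plin1 and Plin4 it lies inside the position given there, and places of motifs are counted from the start used for the window. The windows are chr16:23146286-23146585 on the plus strand for Adipoq, chr7:79732727-79733026 on the minus strand for Plin1, chr6:29059971-29060270 on the plus strand for Lep and chr17:56109733-56110032 on the minus strand for Plin4. Capitals mark the motifs searched on both strands: TTGCGCAA, the palindrome bound by C/EBP factors, CCAAT of the NF-Y box, TATAAA of the core promoter, and the nuclear receptor core AGGTCA.
Adipoq: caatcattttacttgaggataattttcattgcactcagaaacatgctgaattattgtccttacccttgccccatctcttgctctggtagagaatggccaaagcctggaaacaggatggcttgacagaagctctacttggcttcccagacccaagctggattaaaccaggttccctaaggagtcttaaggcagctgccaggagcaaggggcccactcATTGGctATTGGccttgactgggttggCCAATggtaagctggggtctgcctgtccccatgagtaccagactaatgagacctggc
Plin1: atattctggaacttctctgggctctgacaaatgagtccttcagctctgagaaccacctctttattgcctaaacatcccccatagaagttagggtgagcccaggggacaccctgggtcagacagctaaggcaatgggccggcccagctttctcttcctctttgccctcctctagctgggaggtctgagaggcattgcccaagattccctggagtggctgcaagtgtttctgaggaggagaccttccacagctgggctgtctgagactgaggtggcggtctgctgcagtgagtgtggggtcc
Lep: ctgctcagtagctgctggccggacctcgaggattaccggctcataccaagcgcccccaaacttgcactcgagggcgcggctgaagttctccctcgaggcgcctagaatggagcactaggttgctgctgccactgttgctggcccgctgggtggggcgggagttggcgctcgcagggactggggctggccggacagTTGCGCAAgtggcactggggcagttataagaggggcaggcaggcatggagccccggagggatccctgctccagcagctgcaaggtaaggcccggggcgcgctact
Plin4: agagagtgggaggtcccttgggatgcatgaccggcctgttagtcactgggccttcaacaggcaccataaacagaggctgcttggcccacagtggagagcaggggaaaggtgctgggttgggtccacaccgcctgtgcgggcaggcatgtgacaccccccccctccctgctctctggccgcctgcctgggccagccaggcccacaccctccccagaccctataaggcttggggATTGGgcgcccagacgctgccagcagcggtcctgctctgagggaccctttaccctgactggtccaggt
The Lep window held TTGCGCAA from -55 to -48, a motif present in 0.183% of 32851 RefSeq promoter windows of this length. The Adipoq window held CCAAT at 3 places, from -34 to -30 and -27 to -23 on the minus strand and from -7 to -3 on the plus strand, and the Plin4 window held it once, from -18 to -14 on the minus strand; CCAAT was present in 37.4% of all windows. AGGTCA, present in 16.3% of all windows, stood in the Ucp1 window from -14 to -9, and TATAAA, present in 13.6%, was in none of the members' windows. None of the 4 motifs was in the Plin1 window. Of the 10 genes, 8 had a promoter entry; Fabp4 and Cidea had none.

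Adipoq (chr16:23146536-23157968) encodes adiponectin, an insulin-sensitizing hormone made by adipocytes. In the diaphragm its level ranged from 20.7 to 190.2 CPM in females (median 45.6, n = 50) and from 5.49 to 108 in males (median 27.2, n = 48). The gastrocnemius held 9.82 to 41.8 CPM in females (median 19.6, n = 52) and 3.14 to 23.5 in males (median 10.6, n = 52). The diaphragm values overlapped those of the gastrocnemius, with the higher median on the diaphragm side in both sexes. In the soleus the range was 3.22 to 47.3 CPM in females (median 15.3, n = 51) and 2.51 to 35.5 in males (median 9.18, n = 52), and in the tibialis anterior 0.881 to 8.46 in females (median 2.71, n = 51) and 0.550 to 8.60 in males (median 1.64, n = 51). Every female diaphragm library was above every tibialis anterior library. Adipoq was 2.55-fold higher in the diaphragm than in the gastrocnemius (log2 fold change 1.35 ± 0.10 SE, edgeR quasi-likelihood test, Benjamini-Hochberg adjusted p = 3.22e-32) and 15.3-fold higher than in the tibialis anterior (3.94 ± 0.12, adjusted p = 3.34e-112). Between the gastrocnemius and the soleus, neighbours in this order, the mean difference was not called (0.14 ± 0.10 SE, adjusted p = 0.205, edgeR).

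Across the muscle pairs, called means a fold change above 1.5 with an adjusted p under 0.05 in edgeR's quasi-likelihood test over 17580 genes, on means over both sexes and the 6 ages. Between the diaphragm and the gastrocnemius 8 of the 10 genes were called, all higher in the diaphragm, where 51.8% of all genes tested were called in either direction. Between the diaphragm and the soleus 6 were called, all higher in the diaphragm, beside 38.8% of all genes. Between the diaphragm and the tibialis anterior 9 were called, all higher in the diaphragm, beside 53.8% of all genes. Ucp1 is among the genes called in each pair with the diaphragm, though it passed the filter on low counts only through its reads there. The tibialis anterior was the low muscle: 7 genes were higher in the gastrocnemius (beside 16.2% of all genes) and 7 in the soleus (beside 32.3%). Between the gastrocnemius and the soleus 1 gene, Cidea, was called, beside 30.3% of all genes. The median log2 difference of the 10 genes was 1.08 for diaphragm minus gastrocnemius and 3.63 for diaphragm minus tibialis anterior, and the medians over all genes were 0.12 and 0.17.

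**Figure D1:**
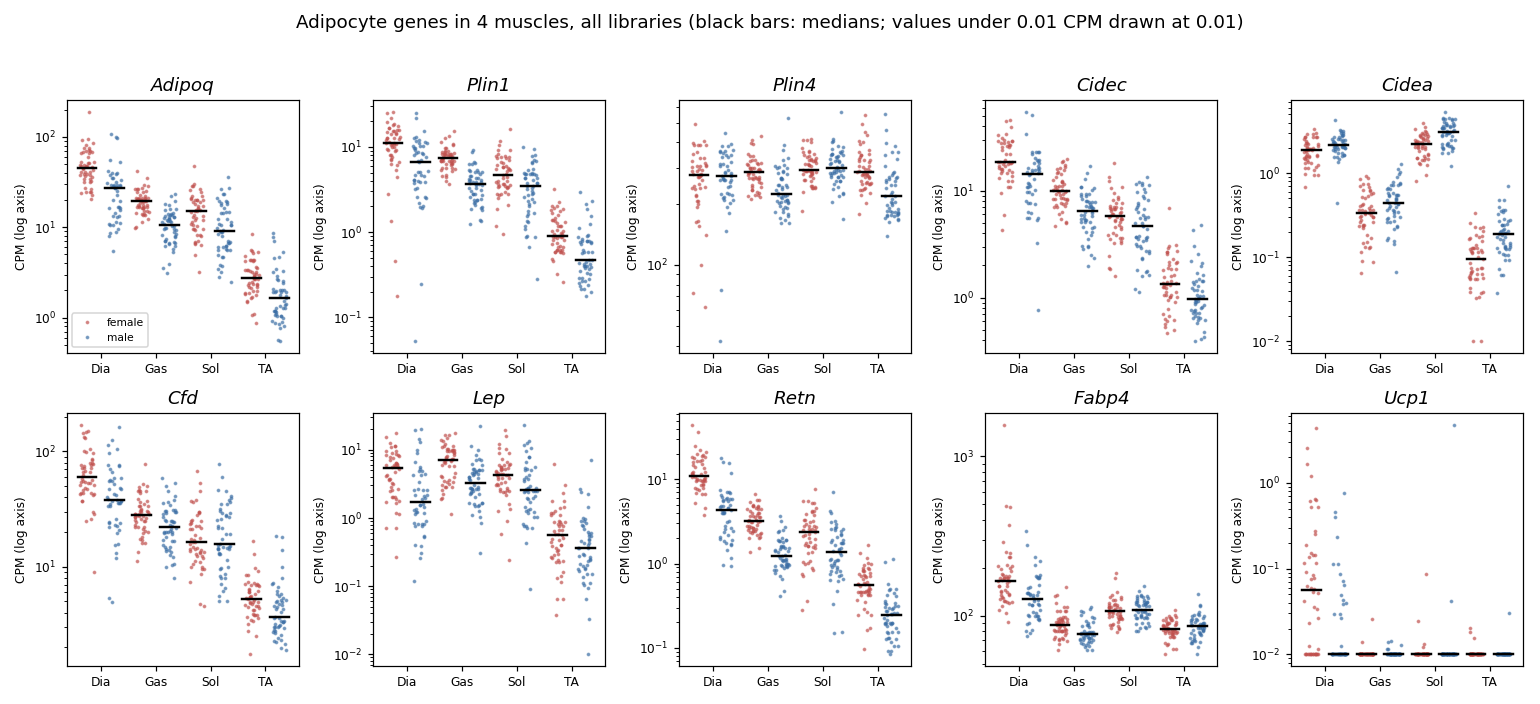
Levels of the 10 genes in CPM (log axis) in the diaphragm (Dia), gastrocnemius (Gas), soleus (Sol) and tibialis anterior (TA); each point is a library, red for females and blue for males, and black bars are medians. Adipoq medians fell from 45.6 CPM in female diaphragm to 2.71 in female tibialis anterior, while Plin4 medians lay between 217 and 301 in every muscle and sex.

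The droplet proteins divided into those that followed Adipoq and those that did not. Plin1 (chr7:79721164-79732904) coats the droplet of adipocytes and gates lipolysis. Its median was 11.1 CPM in female and 6.74 in male diaphragm, 7.33 and 3.67 in gastrocnemius, 4.66 and 3.49 in soleus, and 0.901 and 0.471 in tibialis anterior. It was 11.0-fold higher in the diaphragm than in the tibialis anterior (log2 3.46 ± 0.13) and 1.69-fold higher than in the gastrocnemius (0.75 ± 0.11, adjusted p = 1.87e-10, edgeR). Without the 8 libraries that depended on GC the latter difference was 0.86 (adjusted p = 2.19e-15), and with limma-voom 0.49, which is under the fold limit. Cidec (chr6:113424634-113435760), which fuses droplets into the large one of white adipocytes, had medians of 18.6 and 14.4 CPM in female and male diaphragm and 1.33 and 0.975 in the tibialis anterior, a 13.6-fold difference (3.76 ± 0.11, adjusted p = 4.88e-111, edgeR).

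Plin4 (chr17:56100587-56109948), a droplet protein that muscle fibres also make, was called in none of the 6 pairs. Its medians lay between 217 CPM in male tibialis anterior and 301 in male soleus, and its log2 differences between muscles ran from -0.22 (gastrocnemius minus soleus) to 0.19 (soleus minus tibialis anterior). These differences were small beside those of Plin1 and Cidec.

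Cidea, a droplet protein that is abundant in brown adipocytes, had an order of its own. The soleus held a median of 2.24 CPM in females (range 0.814 to 3.99) and 3.09 in males (1.21 to 5.42), and the diaphragm 1.88 in females (0.685 to 3.35) and 2.15 in males (0.446 to 4.23). The gastrocnemius held 0.333 CPM in females (0.0646 to 0.915) and 0.436 in males (0.0662 to 1.30), and the tibialis anterior 0.0939 and 0.190. The soleus stood 17.4-fold above the tibialis anterior (4.12 ± 0.09, adjusted p = 2.28e-147, edgeR) and 6.41-fold above the gastrocnemius (2.68 on the log2 scale, adjusted p = 1.99e-108). Diaphragm and soleus differed by less than the fold limit (diaphragm minus soleus -0.32 ± 0.08, adjusted p = 6.36e-05). In the female tibialis anterior a median of 0.0939 CPM is a few reads per library.

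Among the secreted proteins, Retn (chr8:3655770-3659818), which encodes resistin, was 19.8-fold higher in the diaphragm than in the tibialis anterior (log2 4.31 ± 0.13, adjusted p = 6.37e-111, edgeR) and 3.64-fold higher than in the gastrocnemius (1.86 ± 0.11, adjusted p = 1.61e-46). Cfd (chr10:79890853-79892655), which encodes adipsin, the complement factor D, had medians of 59.9 and 37.8 CPM in female and male diaphragm, 28.2 and 22.1 in gastrocnemius, 16.3 and 15.7 in soleus, and 5.21 and 3.65 in tibialis anterior. Its diaphragm to tibialis anterior difference was 11.2-fold (3.49 ± 0.12, adjusted p = 1.46e-96). Lep (chr6:29060221-29073876), the satiety hormone leptin, was higher in the diaphragm than in the tibialis anterior (6.38-fold, 2.67 on the log2 scale, adjusted p = 2.98e-39) but was not called higher there than in the gastrocnemius or soleus. Its medians were 5.36 and 1.73 CPM in female and male diaphragm, 7.14 and 3.30 in gastrocnemius, 4.32 and 2.56 in soleus, and 0.562 and 0.363 in tibialis anterior. Diaphragm minus gastrocnemius was -0.37 ± 0.16 for Lep (adjusted p = 0.0243, edgeR), under the fold limit, and -0.71 with limma-voom, past it. The gastrocnemius held 8.24-fold more Lep than the tibialis anterior (3.04 ± 0.18, adjusted p = 2.07e-46).

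Fabp4 (chr3:10204342-10208616) binds fatty acids in the cytoplasm. Its medians were 166 and 127 CPM in female and male diaphragm, and between 76.9 and 109 in the limb muscles. It was 1.94-fold higher in the diaphragm than in the gastrocnemius (log2 0.96 ± 0.05, adjusted p = 2.31e-50, edgeR) and did not differ between the gastrocnemius and the tibialis anterior (0.00 ± 0.05, adjusted p = 1). Its fold of diaphragm over tibialis anterior was 1.94 as well (log2 0.96 ± 0.06), and 6 endothelium markers had medians of 305 and 295 CPM in female and male diaphragm, 216 to 265 in the gastrocnemius and soleus, and 302 and 314 in the tibialis anterior.

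Ucp1 (chr8:83290348-83298456) uncouples respiration in brown and beige adipocytes. It had at least 1 read in 53 of 98 diaphragm libraries, 34 of 50 in females and 19 of 48 in males, against 7 of 104 gastrocnemius, 6 of 103 soleus and 4 of 102 tibialis anterior libraries. Summed over libraries it had 1444 diaphragm reads, 8 from the gastrocnemius, 312 from the soleus and 5 from the tibialis anterior, and 299 of the soleus reads came from 1 male library of 18 months. By edgeR the diaphragm was called higher than each limb muscle. Ucp1 entered that test only through its diaphragm reads, so these calls add nothing to the read counts. With so few reads in the limb muscles the fitted fold change depends on the prior count and is not given.

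Other cell types differed between the muscles as well. In the diaphragm, 4 mesothelium markers (Msln, Upk3b, Wt1 and Lrrn4) summed to a median of 83.3 CPM in females (range 25.6 to 207) and 92.7 in males (55.1 to 180), against medians of 0.164 to 0.406 in the limb muscles, where the highest library had 2.51. The 5 macrophage markers had medians of 136 and 143 CPM in female and male diaphragm, against 32.3 to 57.3 in the limb muscles. Markers of fibro-adipogenic progenitors (Pdgfra, Dpp4, Pi16, Ly6a, Dcn and Gsn) had medians of 1540 and 1750 CPM in female and male diaphragm, 1050 to 1230 in the gastrocnemius and soleus and 804 and 833 in the tibialis anterior, and 3 Schwann cell markers 25.4 to 50.7 in the 4 muscles. Skeletal muscle genes were lowest in the diaphragm (medians of 18800 and 20700 CPM) and highest in the gastrocnemius (73300 and 75900). No marker of these lists was at 0 in every library of a muscle. The part of these cells in the diaphragm levels was not tested.

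At 27 against 6 months, 5 of the 73 combinations of gene, muscle and sex that passed the filter on low counts were called, all higher at 27 months: Cidea in female soleus, male gastrocnemius and male soleus, and Lep and Plin1 in female tibialis anterior. No member fell past the threshold in any muscle or sex. Over all genes tested 12.1% were higher and 5.67% were lower in at least 1 muscle and sex. In the diaphragm 0 of 10 members were called in females and 0 of 9 in males, beside 1.24% and 5.6% of all genes tested (edgeR). These counts include the libraries that depended on GC. Without them 382 of 16142 genes were called in female diaphragm, against 200 of 16193 with them. In male diaphragm 1067 of 16032 were called without them, against 900 of 16075. The male diaphragm share depends strongly on the processing. Of 16075 genes, 60 were called with the run of sample numbers as a covariate, 483 with limma-voom and 1409 with DESeq2. Without the libraries above 1000 CPM of liver genes 1514 of 16005 were called. In the gastrocnemius 0 of 9 were called in females and 1 in males, beside 4.98% and 5.41%. In the soleus 1 of 9 was called in each sex, beside 4.13% in females and 1.19% in males. In the tibialis anterior 2 of 9 were called in females and 0 in males, beside 7.01% and 4.1%. Ucp1 passed the filter in female diaphragm only. At an unadjusted p under 0.05 stood 4 members in female diaphragm, 1 in female gastrocnemius and 0 in male diaphragm and male tibialis anterior, and in the latter 2 limma-voom and DESeq2 called 0 as well.

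The clearest age change was that of Cidea in male gastrocnemius. At 6 months the 8 libraries lay between 0.144 and 0.573 CPM (median 0.220), and at 27 months the 10 libraries lay between 0.556 and 1.30 (median 0.775). The ranges touched only at their ends, with the 6 month maximum just above the 27 month minimum. Cidea rose 3.11-fold (log2 1.64 ± 0.27, edgeR quasi-likelihood test, Benjamini-Hochberg adjusted p = 7.84e-06) and was also called at 21 months (1.11 ± 0.28, adjusted p = 0.00638) and at 24 months (0.78 ± 0.27, adjusted p = 0.0382), where 3.59% and 3.91% of all genes were called. The medians at 12 and 18 months were 0.308 and 0.357 CPM, and those at 21 and 24 months 0.549 and 0.489. Skeletal muscle genes moved with it in this muscle, from a median of 82700 CPM at 6 months (79400 to 89000) to 68700 at 27 months (64700 to 79600), and their part in the rise was not tested.

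In male soleus Cidea was between 1.21 and 3.74 CPM at 6 months (median 1.98, n = 8) and between 2.75 and 5.42 at 27 months (median 3.61, n = 10), a 1.73-fold rise (0.79 ± 0.18, adjusted p = 0.00513, edgeR). It was called there at 21 months too (0.73, beside 0.769% of all genes) and at 24 months (0.63, beside 2%). Female soleus held 0.814 to 2.21 CPM at 6 months (median 1.40, n = 8) and 1.27 to 3.99 at 27 months (median 2.60, n = 10), a 1.71-fold rise (0.78 ± 0.19, adjusted p = 0.00224). The ranges of the ages overlapped in both sexes of the soleus. Calls of Cidea in female soleus were also made at 18 months (0.73, beside 1.66% of all genes) and at 24 months (0.75, beside 5.35%). Of the limb muscles the tibialis anterior had no call of Cidea at any age, and neither had the diaphragm. All 3 calls of Cidea at 27 months stood whichever library of 6 or 27 months was left out, 18 of 18 times in each.

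In female tibialis anterior Lep lay between 0.0650 and 0.514 CPM at 6 months (median 0.257, n = 8) and between 0.270 and 1.78 at 27 months (median 0.711, n = 10). Its rise was 3.18-fold (1.67 ± 0.61, adjusted p = 0.0419, edgeR). Plin1 lay between 0.325 and 0.901 CPM at 6 months (median 0.599) and between 0.591 and 1.80 at 27 months (median 1.00), a 1.89-fold rise (0.92 ± 0.31, adjusted p = 0.0283). Both pairs of ranges overlapped. These calls were near the threshold: with limma-voom the adjusted p was 0.0708 for Lep and 0.0596 for Plin1, and leaving out a library of 6 or 27 months kept the call of Lep in 9 of 18 cases and that of Plin1 in 14 of 18. Liver markers moved with them in this muscle, from a median of 9.23 CPM at 6 months (0.309 to 20.5) to 71.4 at 27 months (1.24 to 612); without the library highest in them Lep was no longer called, and beyond that their part was not tested.

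In female diaphragm Lep lay between 0.266 and 8.82 CPM at 6 months (median 1.91, n = 8) and between 2.01 and 12.6 at 27 months (median 7.32, n = 10), and the ranges overlapped. The 2.98-fold difference (1.58 ± 0.49) had an adjusted p of 0.0838 with edgeR, 0.0351 with limma-voom and 0.0243 with DESeq2, so the call on Lep depends on the tool. It also depends on single libraries: with edgeR Lep was called in 1 of 18 cases in which a library was left out (adjusted p = 0.00805). Both groups held a library that depended on GC. Cidea in female gastrocnemius had medians of 0.196 CPM at 6 months and 0.393 at 27 months (0.84 ± 0.36), with an adjusted p of 0.0746 with edgeR, 0.0443 with limma-voom and 0.0577 with DESeq2.

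Over all older ages, 25 of 365 contrasts with 6 months were called, all 25 higher at the older age. Of the 25, 11 were of Cidea and 5 of Lep. Over the same contrasts, which share their 6 month libraries, 2.52% of all genes were called in either direction. At 27 months calls over all genes leaned upward in female gastrocnemius (627 higher, 138 lower), female tibialis anterior (866 and 157) and every male muscle. Female diaphragm (88 and 112) and female soleus (264 and 370) leaned downward. Of the 9 genes tested in female gastrocnemius 5 were called at some older age (beside 9.44% of all genes), and in female tibialis anterior 4 (beside 9.25%). In female soleus, male gastrocnemius and male soleus the 1 gene called at some age was Cidea (beside 8.52%, 8.06% and 2.85%). In female diaphragm, male diaphragm and male tibialis anterior 0 members were called at any age by edgeR, beside 2.95%, 11% and 8.53% of all genes, while 6, 2 and 2 members had an unadjusted p under 0.05 at some age; limma-voom and DESeq2 called 1, 0 and 0. At 12 months no member was called in any muscle or sex. Few genes of any kind were called at that age, from 0 of 16193 in female diaphragm to 48 of 15227 in male gastrocnemius.

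In female gastrocnemius the calls were made at 18, 21 and 24 months, and 21 or 24 months were not tested against 27. Lep was between 1.92 and 11.4 CPM at 6 months (median 2.89), 9.33 and 16.4 at 21 months (median 10.7) and 1.98 and 10.1 at 27 months (median 6.87). It was called at 18 months (1.19 ± 0.37), 21 months (1.67 ± 0.37, 3.17-fold, adjusted p = 0.00115, edgeR) and 24 months (1.15 ± 0.36). All but 1 of the 6 month values lay under the lowest value of 21 months. At 18 months Lep was the 1 member called (beside 4.01% of all genes), at 21 months 5 were called (beside 4.1%) and at 24 months 3 (beside 4.49%). Cidec was between 4.66 and 10.9 CPM at 6 months and 12.1 and 19.0 at 21 months, with no overlap, and rose 2.09-fold (1.06 ± 0.20, adjusted p = 0.000105). Plin1 rose 1.84-fold (0.88 ± 0.18, adjusted p = 0.00029), Cidea 2.14-fold and Adipoq 1.56-fold (0.64 ± 0.19, adjusted p = 0.0147) at 21 months. At 27 months the median of Adipoq was 18.1 CPM, against 16.4 at 6 months and 26.9 at 21 months, and no member was called. Other markers moved in these libraries: liver markers had medians of 7.61 CPM at 6 months (0.848 to 60.3), 330 at 18 months (8.46 to 397), 57.1 at 21 months (12.0 to 122) and 2.45 at 24 months (0.428 to 39.1), and skeletal muscle genes 79000 CPM at 6 months and 68600 at 21 months. Their part in these calls was not tested.

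Female tibialis anterior had its 4 calls at 24 months: Lep (4.97-fold, log2 2.31 ± 0.61, adjusted p = 0.00578, edgeR), Cidec (2.62-fold, 1.39 ± 0.32, adjusted p = 0.00152), Plin1 (2.34-fold, 1.23 ± 0.31, adjusted p = 0.00435) and Adipoq (1.94-fold, 0.96 ± 0.27, adjusted p = 0.0105), beside 4.55% of all genes. Adipoq was between 1.09 and 3.04 CPM at 6 months (median 2.05) and 1.77 and 8.46 at 24 months (median 3.83). At 21 months Plin1 was the 1 gene called (1.03 ± 0.33, beside 3.08% of all genes). In 1 library of 24 months Lep stood at 6.25 CPM, against 0.325 to 1.40 in the other 9.

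**Figure D2:**
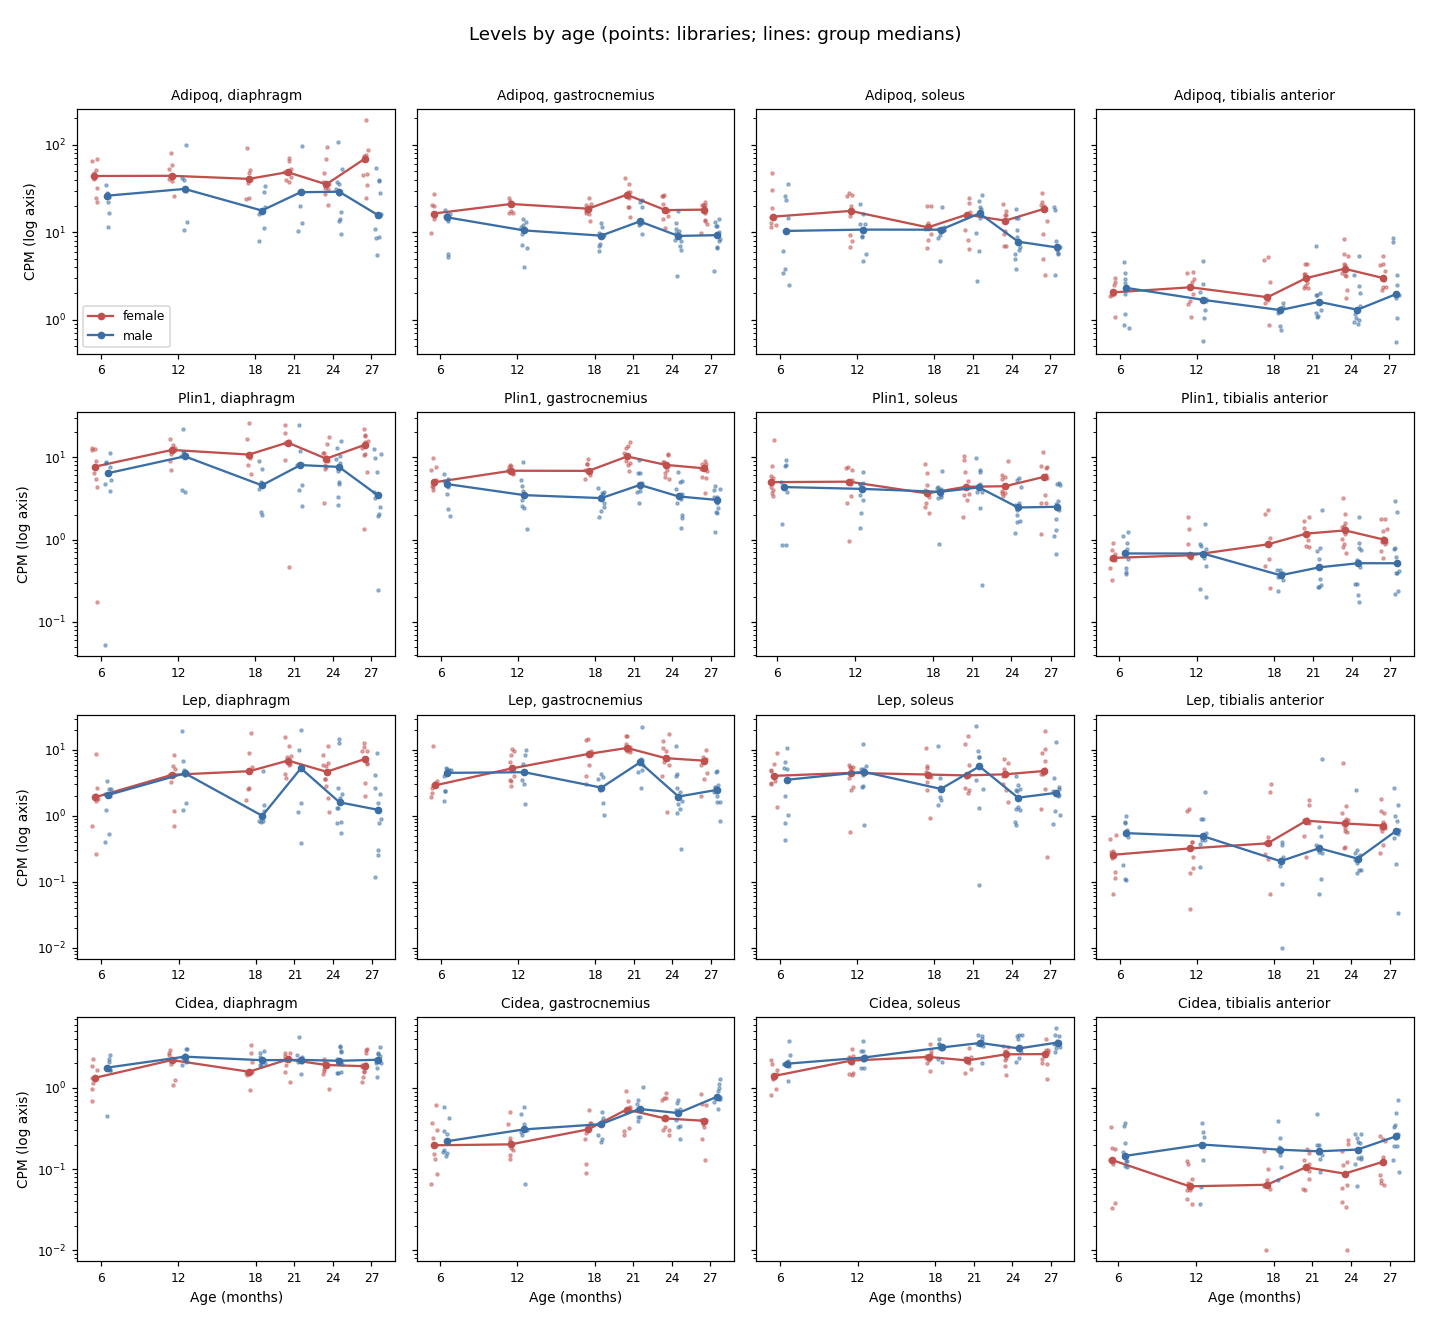
Levels of Adipoq, Plin1, Lep and Cidea in CPM (log axis) against age in months, with a column for each muscle; points are libraries and lines join group medians, red for females and blue for males. Cidea in male gastrocnemius went from a median of 0.220 CPM at 6 months to 0.775 at 27 months, and Adipoq in female gastrocnemius was highest at 21 months (26.9).

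The spread between mice of the same age was wide for these genes. After removal of the mean of each age, the SD of log2 CPM was 0.63 for Adipoq in female and 0.97 in male diaphragm, and from 0.38 (female gastrocnemius) to 0.94 (male soleus) in the limb muscles. For Lep it was 0.79 in female gastrocnemius and 1.58 in male diaphragm. In the limb muscles Plin4 had SDs of 0.23 to 0.40 and Fabp4 of 0.18 to 0.25. In male diaphragm the age medians of Lep spanned 2.41 log2 units, from 1.00 CPM at 18 months to 5.27 at 21 months, without a call at any age.

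Females had more RNA of several adipocyte genes than males, most of all in the diaphragm and the gastrocnemius. Over the mean of the 6 ages, 6 of 10 members were called in the diaphragm, all higher in females, beside 5.18% of all genes tested, and 5 of 9 in the gastrocnemius, all higher in females, beside 8.17%. The 6 of the diaphragm include Ucp1, which passed the filter on low counts in female and not in male diaphragm when each sex was fitted on its own. In the soleus 1 of 9 was called, higher in females, beside 3.97%, and in the tibialis anterior 3 of 9, of which 2 were higher and 1 was lower in females, beside 5.27%. Retn was called in all 4 muscles. It ranged from 3.79 to 44.6 CPM in female diaphragm (median 11.0) and from 0.925 to 17.7 in male diaphragm (median 4.32), and was 2.74-fold higher in females (log2 1.46 ± 0.18, adjusted p = 7.4e-10, edgeR). In the gastrocnemius Retn was 2.44-fold higher in females (1.29 ± 0.11, adjusted p = 2.03e-18), in the tibialis anterior 2.17-fold (1.12 ± 0.15, adjusted p = 1.04e-09) and in the soleus 1.54-fold (0.62 ± 0.19, adjusted p = 0.0068).

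Plin1 was higher in females in the diaphragm (0.70 ± 0.21, adjusted p = 0.0129, edgeR), the gastrocnemius (1.00 ± 0.10, adjusted p = 9.82e-16) and the tibialis anterior (0.67 ± 0.17, adjusted p = 0.000485). In the gastrocnemius it ranged from 3.65 to 15.5 CPM in females and from 1.23 to 9.17 in males, with medians of 7.33 and 3.67. Adipoq was higher in females in the diaphragm (0.85 ± 0.17, 1.80-fold, adjusted p = 0.000106) and the gastrocnemius (0.87 ± 0.09, 1.83-fold, adjusted p = 6.91e-14). The soleus (0.45 ± 0.16, adjusted p = 0.0214) and the tibialis anterior (0.50 ± 0.16, adjusted p = 0.00537) had differences of Adipoq under the fold limit. Female and male ranges of both genes overlapped in every muscle. Cidec was called in the gastrocnemius (0.63 ± 0.10, adjusted p = 1.14e-07).

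Lep was 1.83-fold higher in female gastrocnemius (0.87 ± 0.16, adjusted p = 2.23e-06, edgeR) and 1.64-fold higher in female diaphragm (0.71 ± 0.26, adjusted p = 0.0443). The diaphragm call of Lep did not stand without the libraries above 1000 CPM of liver genes (0.68, adjusted p = 0.0561) or without those that depended on GC (0.66, adjusted p = 0.0535). The call of Cfd in the diaphragm (0.59 ± 0.18, adjusted p = 0.0136) fell under the fold limit without the libraries rich in liver genes (0.55, adjusted p = 0.0185). Ucp1 was called higher in female than male diaphragm, but with each sex fitted on its own it passed the filter on low counts in females only. The call therefore adds nothing to the reads themselves. Ucp1 had a read in 34 of 50 female and 19 of 48 male libraries, with up to 4.35 CPM in females and 0.757 in males. Of the 1247 female reads, 327 were in 1 library. Cidea went the other way: in the tibialis anterior it was 1.97-fold lower in females (fell by 0.98 ± 0.17 on the log2 scale, adjusted p = 8.23e-07), and the differences were -0.25, -0.30 and -0.47 in the diaphragm, gastrocnemius and soleus, under the fold limit. Plin4 and Fabp4 were called in no muscle.

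**Figure D3:**
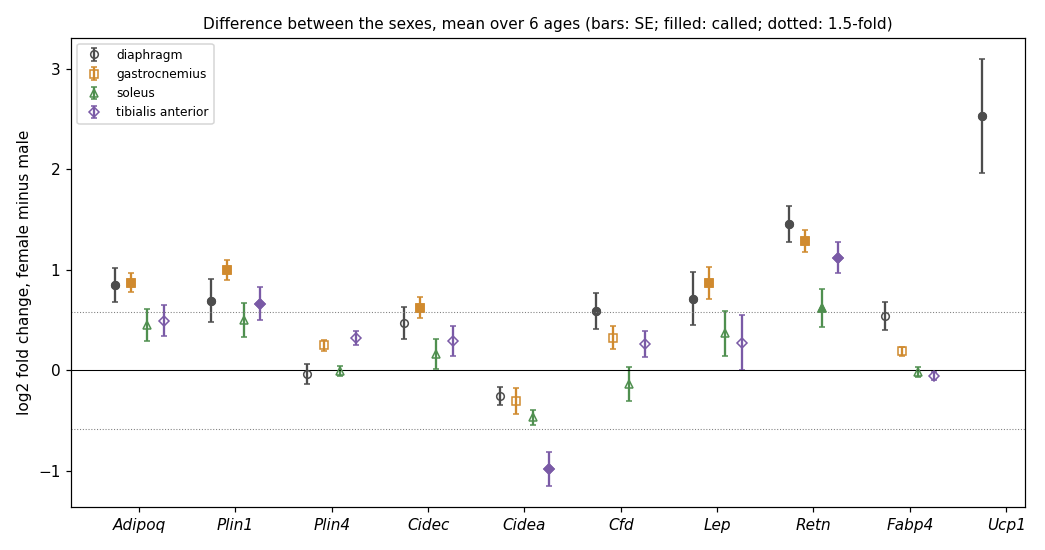
Female minus male difference of each gene on the log2 scale in the 4 muscles, as the mean over the 6 ages; bars are SE, filled symbols are calls and dotted lines mark a 1.5-fold difference. Retn lies above the upper line in every muscle, from 0.62 in the soleus to 1.46 in the diaphragm, and Cidea lies below 0 in every muscle.

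Epidermis markers (Krt5, Krt14 and Krt10) moved with sex in the gastrocnemius, with a median of 24.7 CPM in females (range 0.394 to 160) and 0.646 in males (0.193 to 130). In the soleus their medians were 0.493 and 0.509 CPM, and in the tibialis anterior 0.526 and 0.473. Liver markers moved with sex in the diaphragm, with a median of 27.9 CPM in females (0.0701 to 396) and 5.61 in males (0.149 to 27000). None of these markers was at 0 in every library, and their part in the differences between the sexes was not tested.

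Whether the change with age differed between the sexes was asked of the 27 against 6 month change, female minus male. By edgeR 0 of 10 members were called in the diaphragm and 0 of 9 in each limb muscle, where the shares of all genes called were 0% (diaphragm), 0.572% (gastrocnemius), 0.34% (soleus) and 0.763% (tibialis anterior). In the diaphragm 993 of 16613 genes had an unadjusted p under 0.05, and limma-voom and DESeq2 called 0 members in any muscle; by edgeR 1 member of the diaphragm and 2 of the gastrocnemius had an unadjusted p under 0.05. The rise of Cidea in male gastrocnemius was not shown to differ from the female change (female minus male -0.82 ± 0.45, adjusted p = 0.35).

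Whether the change differed between the muscles of a sex was tested with 3 contrasts at once. In females Fabp4 was called (adjusted p = 0.00172, edgeR), beside 9.39% of all genes, and in males 0 of 10 members were called, beside 7.3%, with 1 member at an unadjusted p under 0.05. Of the female diaphragm libraries of 27 months, 1 that depended on GC held 1577 CPM of Fabp4, against 91.7 to 249 in the other 9. Without the libraries that depended on GC its adjusted p was 0.146, and with limma-voom 0.184. For Cidea in males the adjusted p was 0.0716, and it was 0.0314 without those libraries and 0.0479 with limma-voom. At an unadjusted p under 0.05 stood 3637 of the 17580 genes in males.

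Within a muscle, sex and age, libraries high in Adipoq were also high in most other members. After removal of the mean of each age, Pearson's r with Adipoq over 48 to 52 libraries was computed for 8 genes in 8 combinations of muscle and sex, 64 in all, with 100000 permutations within age; 47 had a Benjamini-Hochberg adjusted permutation p under 0.05, all positive. Ucp1 was left out because it was at 0 in more than 20% of libraries. All libraries of a muscle share their scaling, and reads of these genes in a library share its composition.

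Cidec had r between 0.52 and 0.93 (Spearman's rho 0.68 to 0.90) and passed in 8 of 8 combinations. The same count held for Cfd (r 0.52 to 0.94, rho 0.59 to 0.92), Lep (r 0.55 to 0.82, rho 0.54 to 0.80) and Retn (r 0.53 to 0.92, rho 0.54 to 0.92). For these 4 genes the largest adjusted permutation p was 0.00014, 0.000465, 0.000112 and 0.000654. The smallest p that the permutations can give is 1e-05, adjusted 1.73e-05, which Plin1 in male gastrocnemius reached (r = 0.93, rho = 0.92). Without the 2 libraries farthest from the median of Adipoq, r ran from 0.64 to 0.91 for Cidec, from 0.43 to 0.93 for Cfd, from 0.54 to 0.79 for Lep and from 0.46 to 0.90 for Retn.

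Plin1 passed in 7 of 8 combinations, with r from 0.69 to 0.93 in those. In female diaphragm its r was 0.11 (adjusted permutation p = 0.494) while rho was 0.56 (adjusted permutation p = 0.000131), and without the libraries that depended on GC r was 0.93. The 6 such libraries of the diaphragm held the lowest Plin1 and the highest Fabp4 of their groups. Plin1 has a GC content of 56.9% and Fabp4 of 42.7% in the longest transcript of the annotation.

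Fabp4 had r from 0.59 to 0.73 in the diaphragm, gastrocnemius and soleus, whereas the tibialis anterior had 0.14 in females (adjusted permutation p = 0.382) and -0.04 in males (adjusted permutation p = 0.827). Cidea passed in the diaphragm alone, with r = 0.365 in females (rho = 0.318, adjusted permutation p = 0.0186) and 0.30 in males (rho = 0.33, adjusted permutation p = 0.0292), and passed in 0 combinations without the libraries that depended on GC. Its r in the soleus was 0.11 in females and 0.02 in males. Plin4 passed in none, with r from -0.24 to 0.22 and the smallest adjusted permutation p at 0.131.

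**Figure D4:**
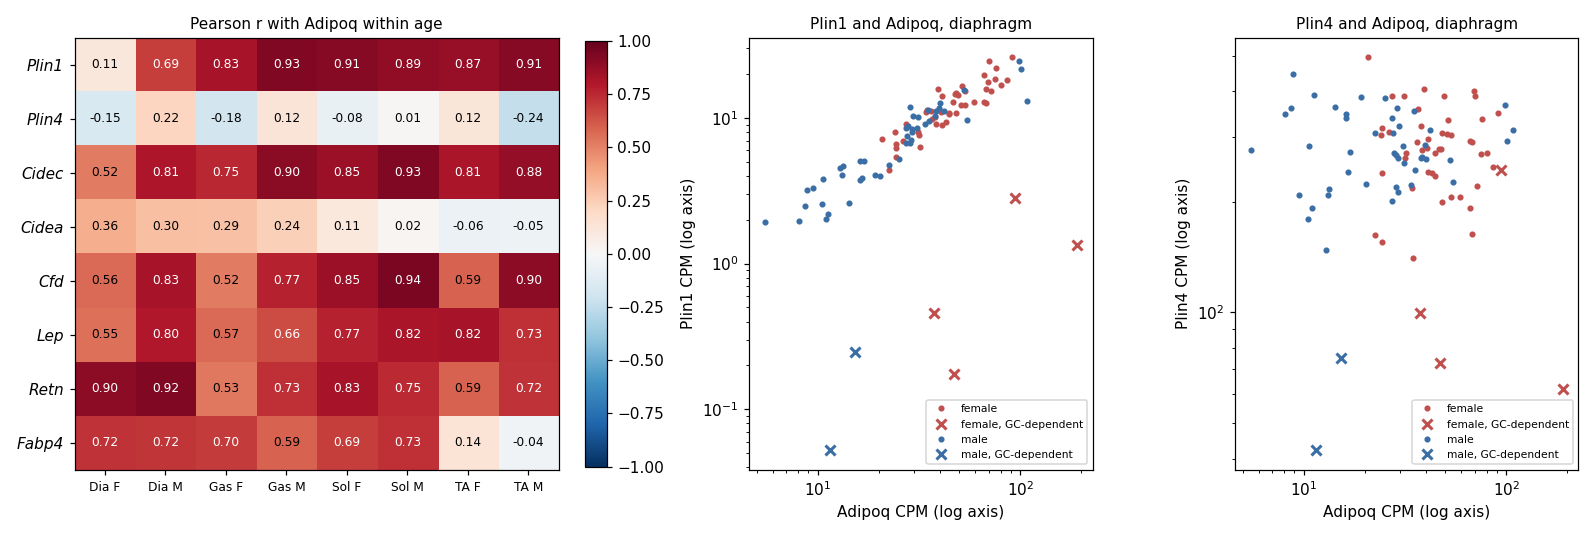
Left, Pearson's r with Adipoq after removal of age means for 8 genes (lines) in each muscle and sex (columns, F female and M male). Middle and right, Plin1 and Plin4 against Adipoq in CPM (log axes) over the 98 diaphragm libraries, with crosses for those that depended on GC, which lie low in Plin1; the other libraries rise together for Plin1 and not for Plin4.

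Over all 407 libraries, with the mean of each sex, muscle and age group removed, 14181 genes that passed the filter in every muscle and sex were ordered by their r with Adipoq. The 8 genes outside the 10 with the highest r were Lgals12 (0.90), a galectin of adipocyte droplets, Prkar2b (0.89), a regulatory subunit of protein kinase A, Tmem45b (0.88), Acvr1c (0.88), the activin receptor ALK7, Glb1l2 (0.85), Aoc3 (0.82), an amine oxidase, Gnai1 (0.78) and Car5b (0.77). In each of the 8 combinations of muscle and sex r was at least 0.71 for Lgals12 and at least 0.82 for Prkar2b. Among the members, Cidec stood at place 6, Cfd at 8, Retn at 11, Lep at 16, Plin1 at 22 and Fabp4 at 59 of the 14181, while Cidea stood at 2678 and Plin4 at 6494.

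Of 21 further white adipocyte genes, 5 were higher and 1 was lower at 27 than at 6 months in at least 1 muscle and sex; over all genes tested 12.1% were higher and 5.67% were lower in at least 1. Npr3, the clearance receptor of natriuretic peptides, rose in female gastrocnemius (1.12 ± 0.21, adjusted p = 3.55e-05, edgeR), female soleus (0.65), male soleus (0.87) and male tibialis anterior (0.66). Slc7a10, an amino acid transporter, rose in female gastrocnemius (0.64 ± 0.19) and female tibialis anterior (1.17 ± 0.38), and Rbp4, the plasma carrier of retinol, in female tibialis anterior (2.69 ± 0.49, adjusted p = 4.65e-05). Rbp4 is a major product of the liver, whose markers were high in that muscle at 27 months, and their part in its rise was not tested. The median log2 change of the list was 0.43 in female diaphragm, where the median of all genes was 0.03 and 0 of the 21 were called by edgeR (9 at an unadjusted p under 0.05, 0 called by limma-voom and 1 by DESeq2), and -0.29 in male soleus, where the median of all genes was -0.01 and 1 was called.

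Of 9 adipogenic regulators 0 rose by edgeR (4 at an unadjusted p under 0.05, 0 called by limma-voom and 1 by DESeq2) and 2 fell: Ebf2, a factor of brown adipocyte precursors, in male diaphragm (-0.80 ± 0.18, adjusted p = 0.00528) and Srebf1, which drives lipid synthesis, in male gastrocnemius (-0.62 ± 0.11, adjusted p = 2.88e-05). Of 7 genes of fatty acid synthesis 2 fell: Elovl6, an elongase, in female soleus (-1.57 ± 0.37, adjusted p = 0.00174, edgeR) and Scd1, a desaturase, in male gastrocnemius (-1.03 ± 0.28, adjusted p = 0.00591). Both counts of genes that fell stand beside 5.67% of all genes that were lower in at least 1 set. Of 13 brown and beige adipocyte genes 5 rose in at least 1 set (12.1% of all genes did), among them Ppargc1a, a coactivator of mitochondrial genes that muscle fibres also use, in male gastrocnemius (0.91 ± 0.29) and male tibialis anterior (0.81 ± 0.28). Slc27a2 (3.34 ± 0.91) and Cpn2 (3.21 ± 0.92), which the liver also expresses, rose in female tibialis anterior, the muscle and age in which liver markers were high; their part in these calls was not tested. Of 11 further lipid droplet genes 0 were called at 27 months in any muscle or sex by edgeR, limma-voom or DESeq2, though 9 had an unadjusted p under 0.05 in at least 1 set. The number of brown and beige genes that rose was 0 with limma-voom and 6 with DESeq2.

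Between diaphragm and tibialis anterior, where 53.8% of all genes were called in either direction, 16 of the 21 white adipocyte genes were higher in the diaphragm and 1 was lower (median 2.52, all genes 0.17). Of the 7 genes of fatty acid synthesis 6 were higher and 1 was lower there (median 2.77), and 7 of 7 were higher in female than in male diaphragm (median 1.10, all genes 0.00, with 5.18% of all genes called). Of the 9 adipogenic regulators 4 were higher and 0 were lower in the diaphragm than in the tibialis anterior (median 0.33), a share below that of all genes. Of the lipid droplet genes 0 of 11 were called between the sexes in the diaphragm, the soleus or the tibialis anterior by edgeR, limma-voom or DESeq2 (4, 5 and 7 had an unadjusted p under 0.05), and 1 was higher in female gastrocnemius.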

How the data were processed

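Total RNA of 4 muscles of C57BL/6J mice was sequenced strand-specifically after removal of ribosomal RNA, in pairs of 76 bases, and 407 libraries were analysed. Per the paper's methods the authors processed the reads in ArrayStudio on mm10 with a gene model of their own built on RefSeq, and they deposited raw counts per gene for each library, which are whole numbers without normalization. No source used here gives a version for it. Of 25091 lines per table, 633 repeats of a symbol, with 0.0335% of counts, were left out. At these depths the spread between mice sets the precision for most members, and low read counts add to it for Ucp1 and a few others. Median reads per library in the tibialis anterior were 7.5 for Cidea, 23.5 for Lep and 22.5 for Retn, and in the gastrocnemius 28 for Cidea.

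Counts were scaled by TMM, low genes were removed with filterByExpr, and edgeR 4.0.16 (quasi-likelihood test, R 4.3.3) was fitted over all genes, with Benjamini-Hochberg adjustment over all of them. Ages were compared with 6 months within each muscle and sex, as the study did with limma and a Bonferroni adjustment. Muscles and sexes were compared on means over ages. CPM are TMM-scaled, and log2 CPM had a prior count of 0.5. Alternatives were limma-voom 3.58.1, DESeq2 1.42.0, RLE size factors, no filter, no fold limit, a replicate block, the run of sample numbers as a covariate, and libraries left out (each in turn, the deepest, and that highest in liver markers in each muscle and sex); those without the GC-dependent and the liver-rich libraries (over 1000 CPM) were chosen after seeing the data. Scripts were tested on simulated data. All 10 genes are named; of each further list, up to 3 genes called in the most sets were named, and the 8 genes most like Adipoq. The genes and lists were chosen with earlier results of these data known. A marker list of another cell type was also summed and is not reported here.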

Additional observations from a re-analysis of the deposited data

Results flagged for a closer look

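In groups of 6 to 10 libraries, a library was set apart when its gap to the nearest other library, divided by the range of the group, passed Dixon's 95% value. Gap and range were taken in log2 CPM, and the values below are given in CPM. Of 431 pairs of gene and group without a library at 0, 50 values in 35 libraries passed, and chance gives about 5% of groups. Of the 50, 19 stood in the 6 diaphragm libraries that depended on GC.

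Those 6 came first. Male diaphragm replicate 2 of 6 months had 6 genes apart, all below the other 7 libraries: Plin1 (0.0524 CPM against at least 3.85), Plin4 (42.2 against 242), Cidec (0.760 against 10.8), Cidea (0.446 against 1.66), Cfd (5.35 against 36.8) and Retn (1.83 against 3.95). In female diaphragm, replicate 2 of 6 months had 3 genes apart, with Plin1 at 0.176 CPM (others 4.39 to 12.9), Plin4 at 72.7 (163 to 318) and Fabp4 at 371 (108 to 176). Replicate 0 of 21 months had 3, with Plin1 at 0.462 CPM (others 9.36 to 24.8), Plin4 at 99.7 (239.6 to 406) and Cfd at 9.06 (54.6 to 74.3). Replicate 0 of 27 months had 3, with Plin1 at 1.34 CPM (6.67 to 22.0), Plin4 at 61.9 (155 to 336) and Fabp4 at 1577 (91.7 to 249). Replicate 3 of 24 months had 2, with Plin1 at 2.82 CPM (7.14 to 17.5) and Fabp4 at 478 (124 to 204). Male diaphragm replicate 6 of 27 months, also rich in liver RNA, had 2, with Plin1 at 0.246 CPM (1.92 to 12.6) and Plin4 at 75.4 (193 to 446).

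Besides these, 2 libraries had 2 genes apart. Male diaphragm replicate 6 of 21 months held 114 CPM of Cfd (others 22.5 to 42.4) and 16.3 of Retn (1.93 to 4.59), and male tibialis anterior replicate 6 of 21 months held 7.03 CPM of Adipoq (1.08 to 2.02) and 4.79 of Cidec (0.620 to 1.33).

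A further 27 libraries had 1 gene apart. Lep was high in male diaphragm replicate 1 of 18 months (4.82 CPM, others at most 1.47), female gastrocnemius replicate 6 of 6 months (11.4, others at most 3.40), male gastrocnemius replicate 6 of 21 months (22.4, others at most 7.30), male soleus replicate 7 of 18 months (11.6, others at most 3.80), female tibialis anterior replicate 2 of 24 months (6.25, others at most 1.40) and male tibialis anterior replicate 4 of 24 months (2.44, others at most 0.298). It was low in female soleus replicate 0 of 12 months (0.574, others at least 2.44). Fabp4 was high in male diaphragm replicate 6 of 24 months (341 CPM, others at most 177), male gastrocnemius replicate 2 of 12 months (114, others at most 77.8) and replicate 5 of 18 months (106, others at most 78.6), female soleus replicate 5 of 21 months (184, others at most 128) and male tibialis anterior replicate 8 of 27 months (136, others at most 94.9). Cfd was high in female soleus replicate 3 of 18 months (29.0 CPM, others at most 16.3) and replicate 7 of 24 months (53.4, others at most 21.4), and Cidec in female diaphragm replicate 5 of 12 months (29.7, others at most 18.5).

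Plin4 was low in male diaphragm replicate 2 of 18 months (223 CPM, others at least 346), female soleus replicate 0 of 27 months (185, others at least 238) and male soleus replicate 1 of 6 months (283, others at least 326), and high in male tibialis anterior replicate 9 of 24 months (346, others at most 219). Plin1 was low in female gastrocnemius replicate 5 of 27 months (3.65 CPM, others at least 5.61) and in male soleus replicate 6 of 18 months (0.892, others at least 3.19) and replicate 5 of 21 months (0.284, others at least 2.45). Cidea was low in female diaphragm replicate 1 of 24 months (0.957 CPM, others at least 1.47), male gastrocnemius replicate 0 of 12 months (0.0662, others at least 0.265) and male soleus replicate 0 of 21 months (2.01, others at least 3.25), and high in male tibialis anterior replicate 2 of 21 months (0.481, others at most 0.200). Adipoq was low in female tibialis anterior replicate 0 of 6 months (1.09 CPM, others at least 1.88).

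The 27 against 6 month change of Fabp4 differed between the muscles of females (adjusted p = 0.00172, edgeR), and its adjusted p was 0.146 without the libraries that depended on GC, among them the diaphragm library with 1577 CPM. Groups with a library at 0 were not tested this way, among them male soleus of 18 months, where Ucp1 was at 4.79 CPM (299 reads) in replicate 1 and at 0 in the other 7.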

How the results depend on the processing

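The count of members called at 27 against 6 months, 5, was 4 to 6 with limma-voom, DESeq2, RLE size factors, no filter on low counts, the covariate, no fold limit and the left-out library sets, and 1 with the Bonferroni adjustment of the study (Cidea in male gastrocnemius). Leaving out each library of 6 or 27 months in turn gave 3 to 7; the lowest count came without female tibialis anterior replicate 8 of 27 months or replicate 0 of 6 months, where Lep and Plin1 were lost. Limma-voom also gave 5, but not the same genes: the 3 calls of Cidea were shared, Lep and Plin1 in female tibialis anterior were not called, and Lep in female diaphragm and Cidea in female gastrocnemius were. The count over all older ages, 12, was 12 to 15, and 2 with Bonferroni. With the replicate number as a block 4 members were called at 27 months, 13 at any older age and 40 between muscles (38 without the block). The numbers do not pair the ages or the muscles by the labels; as a hint from the data, limb muscles of the same number deviated together (mean r 0.22, 0.34 and 0.20), with 71 of 104 gastrocnemius libraries most like the tibialis anterior library of their own number, and the diaphragm did not. Calls between muscles ran from 38 to 40 and were 49 with no fold limit, calls between the sexes, 15, from 13 to 18 and were 27 with no fold limit (added after seeing the data), and correlations past the threshold from 46 to 48, against 47. The interaction with sex gave 0 and that with muscle 1 under every alternative run, though in limma-voom and without the GC-dependent libraries that 1 was Cidea in males, not Fabp4 in females. No result changed direction past its threshold, and the causes of these shifts were not tested. Depth limits Ucp1 and, in the tibialis anterior, Cidea and Lep, which had libraries at 0 reads. Retn in the tibialis anterior and Cidea in the gastrocnemius had libraries with as few as 5 and 4 reads.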
